A study of Mus musculus with 12 samples.

Results

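The respiratory chain subunits that nuclear genes encode were followed in RNA of the embryonic mouse dorsal cortex, with and without the histone methylation factor Ash2l. The 86 genes were taken by symbol from the 27179 genes of the deposited tables: the numbered Nduf genes of the A, B, C, S and V series, Sdha to Sdhd, and all symbols that begin with Uqcr, Cox4 to Cox8 or Atp5. They comprise 37 genes of complex I, 4 of complex II, 9 of complex III, 18 of complex IV and 18 of complex V. The rule uses symbols alone, but it was set with earlier results of these data known. The symbols were checked against known roles: Atp5c1-ps and Uqcrh-ps1 are named as pseudogenes, and Atp5s and Atp5sl match the pattern but encode proteins related to a coupling factor of the ATP synthase, not subunits. Ndufa4 carries a complex I name, although its protein is found with complex IV. All of these stayed in the counts.

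The chain sits in the inner mitochondrial membrane. Complexes I and II pass electrons from NADH and succinate to ubiquinone, complex III passes them on to cytochrome c, and complex IV delivers them to oxygen. Complexes I, III and IV pump protons, and complex V, the ATP synthase, uses the proton gradient to make ATP. Complex II is encoded wholly in the nucleus, while each of the others also holds subunits from mitochondrial DNA. In the developing cortex, dividing progenitors and the neurons they produce are known to differ in how far they rely on this chain.

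The study compared dorsal cortex of C57BL/6 embryos at embryonic days E14.5 and E16.5. At each age there were 3 wild-type (WT) and 3 conditional knockout (cKO) libraries, which makes 12 libraries of total RNA. The cKO embryos carry D6-Cre, a recombinase that works in progenitors of the dorsal telencephalon, and lose Ash2l there, a core subunit of the COMPASS enzymes that methylate histone H3. Which Cre or floxed alleles the WT embryos carry, and whether any library pools embryos, is not given in the sources used here. By their titles, 1 WT and 1 cKO library of an age share a number. Within an age, A is the WT and cKO library with the lowest number, B the next and C the highest. No label says that the libraries came from separate embryos, and the p-values then cover only differences between libraries, which may be technical.

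Library totals ran from 14318147 to 24719047 counted fragments, and the 86 genes took between 0.392% and 0.473% of them. Ash2l lay between 118 and 143 CPM (counts scaled to library size) in the WT libraries and between 47.0 and 60.7 CPM in the cKO libraries, with log2 fold changes of -1.28 at E14.5 and -1.202 at E16.5 (edgeR adjusted p = 0.0124 and 8.19e-04). At E14.5 all 3 WT libraries carried male and all 3 cKO libraries female transcripts, whereas at E16.5 WT A and cKO C were the female ones. Some E14.5 libraries stood apart. Meningeal markers summed to 340 CPM in cKO A against 12.4 to 45.3 CPM in the other E14.5 libraries, and ventral forebrain markers to 309 CPM in WT B. Choroid plexus markers summed to 466 CPM in E14.5 WT A and 606 CPM in E16.5 WT C. Dorsal cortex markers summed to between 1414 and 2091 CPM in the 12 libraries, and none was at 0 throughout. In bulk tissue, fewer cells of a type and less RNA per cell cannot be told apart.

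The stretches before the start sites of the 4 genes of the set that changed at E16.5 are shown first, because Ash2l acts at promoters and because these genes went in opposite directions. They come from the RefSeq promoter table of GRCm38.p6, which holds 69 of the 86 genes, and each stretch is the 150 bases before the start site, 5′ to 3′ on the gene's own strand. Capitals mark a match to 1 of the 3 motifs searched on both strands: GCATGCGC, the core of the NRF1 motif, CCGGAAG, an ETS motif as GABPA binds, and AAGATGG, as YY1 binds. The 3 strings do not overlap each other in these stretches. Atp5sl (chr7:25619264-25619413, plus strand) and Ndufv3 (chr17:31519965-31520114, plus strand) were lower in cKO, and Atp5h (chr11:115419920-115420069, minus strand) and Uqcr10 (chr11:4704345-4704494, minus strand) were higher.
Atp5sl: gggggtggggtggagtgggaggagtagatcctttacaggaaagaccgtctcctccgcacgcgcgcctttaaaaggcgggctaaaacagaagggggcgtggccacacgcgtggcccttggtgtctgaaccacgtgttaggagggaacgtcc
Ndufv3: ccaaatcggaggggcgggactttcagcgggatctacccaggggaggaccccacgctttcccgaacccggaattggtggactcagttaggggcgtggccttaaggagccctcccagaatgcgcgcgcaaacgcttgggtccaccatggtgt
Atp5h: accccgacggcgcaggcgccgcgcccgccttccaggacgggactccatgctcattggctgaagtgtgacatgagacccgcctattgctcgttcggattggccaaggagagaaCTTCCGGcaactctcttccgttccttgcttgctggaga
Uqcr10: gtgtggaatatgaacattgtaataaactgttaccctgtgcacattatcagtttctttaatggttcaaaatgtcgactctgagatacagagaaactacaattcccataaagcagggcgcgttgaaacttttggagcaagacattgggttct

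As printed, Atp5h alone of these 4 stretches holds a match, to the ETS string on the minus strand. The stretch of Uqcr10 has 3 CpG dinucleotides, against 11 in Atp5sl, 11 in Ndufv3 and 13 in Atp5h. For Atp5sl the table lists 2 starts. The stretch shown lies before the upstream one, and the gene model that was counted begins at the other. Between these 2 starts lies a match to the YY1 string on the plus strand, which is within the 150 bases before the counted start and not in the stretch shown. Over the 75 promoter windows of the 69 genes, each of 300 bases, 13.3% held the NRF1 string, 21.3% the ETS string and 17.3% the YY1 string. Over the 14346 windows of genes tested at E16.5 the shares were 4.95%, 16% and 6.62%, and over all 32851 windows of the table they were 2.71%, 8.86% and 6.34%. The NRF1 string was found at Atp5g2, Atp5k, Atp5l, Cox6a1, Ndufa11, Ndufa6, Ndufa8, Sdhb, Uqcr11 and Uqcrc1. A window held a median of 19 CpG dinucleotides in the set and of 20 among genes tested at E16.5. These are counts of letters and do not show that a factor binds.

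Levels differed far more between the genes than between the groups. The plot of levels by complex uses RPKM, CPM divided by exon length in kilobases, so that genes of different length can be compared. In E14.5 WT the catalytic beta subunit of the ATP synthase, Atp5b, was highest at 323 RPKM, followed by its partner Atp5a1, the alpha subunit, at 222 RPKM. Cox7c, a small subunit of complex IV, was at 210 RPKM. The median level was 31.8 RPKM for the 36 genes of complex I that averaged at least 1 CPM, 44.2 for complex II, 52.8 for complex III, 76.9 for complex IV and 62.6 for complex V. The lowest of the 76 genes above that bound was Atp5s at 3.10 RPKM. Ndufa11 was the lowest of complex I at 6.15 RPKM.

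**Figure D1:**
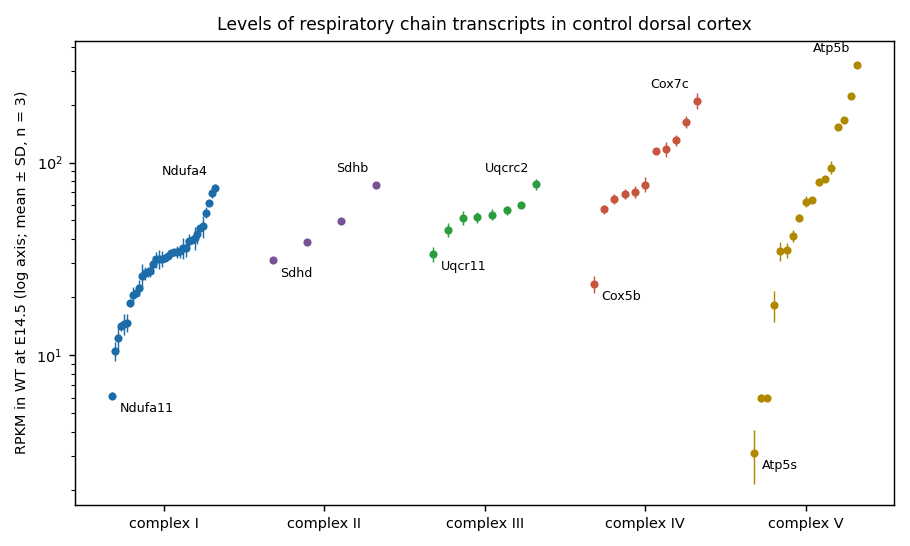
Level of each of the 76 genes that averaged at least 1 CPM, in the 3 WT libraries at E14.5. The vertical axis is RPKM on a log scale and points and bars are the mean and SD over 3 libraries. The genes run from Atp5s at 3.10 RPKM to Atp5b at 323 RPKM, and the bars are short beside that range.

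Replicates agreed closely for most of these genes. The median coefficient of variation within a group, the SD as a percent of the mean over 3 libraries, lay between 5.77% and 8.19% in the 4 groups. Uqcrb, the ubiquinone-binding protein of complex III, had the highest value in E16.5 cKO, 45.8%, while in E16.5 WT Atp5k was highest at 30.6%. The levels of Uqcrb were 16.2, 23.6 and 25.05 CPM in E16.5 WT A, B and C and 10.6, 22.2 and 29.4 CPM in cKO A, B and C. The low libraries of both genotypes are the pair A, and the groups overlapped. At E14.5 the 6 libraries lay between 24.0 and 31.0 CPM for Uqcrb.

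Several subunits come in isoforms with tissue preferences, and the cortex used the ubiquitous one in most sets. By RPKM, Cox4i1 made up at least 99.7% of the Cox4 pair in every library, Cox6a1 at least 99.7% of Cox6a, and Cox8a at least 99.8% of the Cox8 set. Cox6b1 took 98.1% to 99.7% of its pair with Cox6b2, the testis form. Cox7a2 and Cox7a2l, a factor of supercomplex assembly, took 51.4% and 47.3% of the Cox7a set in E14.5 WT, and the muscle form Cox7a1 took 1.30%. Ndufa4 held at least 98.0% of the sum with Ndufa4l2, a form induced by low oxygen. Cox8b had 0 counts in all 12 libraries. Of the minor forms, Cox7a1 and Ndufa4l2 were tested at both ages and Cox6b2 at E14.5, and none passed.

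Of the 86 genes, 79 were tested at E14.5 and 78 at E16.5. Cox8c, Atp5c1-ps, Uqcrh-ps1, Cox4i2, Cox7b2, Cox6a2 and Cox8b had too few counts at either age, with at most 10 counts in a library, and Cox6b2 was too low at E16.5 only.

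The E14.5 comparison asks what loss of Ash2l does to the chain 2 days before the later sample. No gene of the set passed an adjusted p of 0.05 with edgeR's quasi-likelihood test (0 of 79), against 2.01% of all genes tested. At an unadjusted p under 0.05 there were 6 of 79 (7.59%), against 20.2% of all genes. DESeq2 called 3, Uqcr10, Cox6a1 and Atp5sl, and 8.64% of all genes. The 95% interval of the log2 fold change lay within 1.5-fold in both directions for 66 of the 79 genes and within 2-fold for 76.

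Small positive differences were frequent at E14.5. The fitted log2 fold change was above 0 in 65 of 79 genes (82.3%), against 53.9% of all genes, with a median of 0.08 against 0.03. Medians by complex were 0.06 for complex I, 0.07 for complex II, 0.19 for complex III, 0.10 for complex IV and 0.06 for complex V. The 3 cKO libraries all lay above the 3 WT libraries in 14 genes (17.7%), against 11.9% of all genes, and all below in 1 gene, Atp5sl (1.27%), against 14.8%. The summed level of all 86 genes was 4230, 4415 and 4393 CPM in WT A, B and C and 4603, 4531 and 4481 CPM in cKO A, B and C. The groups did not overlap. Short genes outside the set had positive medians as well: 0.17 for the 370 other genes under 500 bases and 0.10 for the 946 others of under 1000 bases. With offsets that adjust each library for exon length, the median of the set was 0.01.

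By role, core subunits of complex I, which carry out its electron transfer, were close to 0 at E14.5: the 6 genes Ndufs1, Ndufs3, Ndufs7, Ndufs8, Ndufv1 and Ndufv2 lay between -0.01 and 0.15. The accessory subunit Ndufa2 had the largest value of the complex at 0.49 (adjusted p = 0.144). The 4 subunits of complex II lay between 0.05 and 0.11, with Sdhd, a membrane anchor, at 0.11 (adjusted p = 0.615). In complex III, 6 of the 8 genes tested were above 0. Uqcr10 was at 0.44 and Uqcrh at 0.25 (edgeR adjusted p = 0.0790 and 0.242). The Rieske iron-sulphur protein Uqcrfs1 was at -0.09 (adjusted p = 0.631).

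In complex IV, Cox6a1 was at 30.15, 29.0 and 32.3 CPM in WT and 40.2, 35.6 and 41.55 CPM in cKO at E14.5, a log2 difference of 0.37 (SE 0.103, edgeR adjusted p = 0.110). The groups did not overlap. Among the 5 subunits of the catalytic F1 part of the ATP synthase, Atp5a1, Atp5b, Atp5c1, Atp5d and Atp5e, values ran from 0.03 to 0.18. Atp5k, a small membrane subunit of low level, was at 0.58 with a wide interval, from -0.08 to 1.24 (adjusted p = 0.302).

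Because all E14.5 cKO embryos were female and all WT male, sex and genotype cannot be told apart in these 6 libraries. In a 12-library fit that includes sex as a term, the sex effect comes from the E16.5 libraries. There 0 genes of the set passed, against 0.835% of all genes, and the median of the set was 0.12. The same fit without that term called 4 of the set and 8.71% of all genes. Without WT B and cKO A, the libraries with high ventral and meningeal markers, the count was 0, against 4.15% of all genes in that fit, and the median was 0.08 against 0.00 for all genes.

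At E16.5 the loss of Ash2l changed 4 of 78 genes (5.13%), against 15.9% of all genes tested. Atp5h and Uqcr10 were higher in cKO, 2 genes against 5.98% of all genes called higher, and Atp5sl and Ndufv3 were lower, 2 genes against 9.88% called lower. The 4 lay between 0.659 and 1.32 of their WT level. The interval lay within 1.5-fold for 61 of 78 genes and within 2-fold for 77.

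Atp5sl, also known as Dmac2, encodes a protein that helps assemble the membrane arm of complex I. It lies on chromosome 7 from 25619493 to 25625550 in mm10, with 6 exons and 2389 exonic bases. Its levels at E16.5 were 14.2, 14.2 and 14.4 CPM in WT A, B and C and 8.57, 10.2 and 9.58 CPM in cKO A, B and C. No cKO library reached a WT library. The fitted log2 difference was -0.60 with an SE of 0.115 (edgeR adjusted p = 0.0127), which is 0.659 of the WT level (95% interval 0.548 to 0.792). At E14.5 the libraries were also apart, at 13.8, 14.48 and 14.8 CPM in WT and 10.1, 10.4 and 9.20 CPM in cKO, and the fitted difference was -0.53 (SE 0.122, edgeR adjusted p = 0.0751). In the authors' deposited table the log2 ratio of WT over knockout was 0.5 at E14.5 and 0.57 at E16.5, and both were called there.

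Ndufv3, an accessory subunit of the NADH-oxidising module of complex I, lies on chromosome 17 from 31520115 to 31531326. Its levels at E16.5 were 13.6, 12.9 and 12.6 CPM in WT A, B and C and 7.82, 10.3 and 8.26 CPM in cKO, with no overlap. The fitted log2 difference was -0.57 with an SE of 0.140 (edgeR adjusted p = 0.0308). The core subunits of the same module, Ndufv1 and Ndufv2, were at 0.15 and 0.08 (adjusted p = 0.247 and 0.573). At E14.5 Ndufv3 was at 16.75, 14.55 and 18.3 CPM in WT and 15.02, 10.7 and 13.3 CPM in cKO, which overlap.

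Atp5h encodes subunit d of the stalk that holds the ATP synthase still, and lies on chromosome 11 from 115415697 to 115419919. Its levels at E16.5 were 73.5, 71.2 and 79.6 CPM in WT and 94.9, 89.8 and 89.4 CPM in cKO, with no overlap. The fitted log2 difference was 0.28 with an SE of 0.0704 (edgeR adjusted p = 0.0324), a 1.22-fold difference (95% interval 1.09 to 1.36). Other stalk subunits, Atp5f1, Atp5o and Atp5j, were at -0.01, 0.02 and -0.04 (adjusted p = 0.960, 0.869 and 0.871).

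Uqcr10, a small subunit of complex III, lies on chromosome 11 from 4701968 to 4704344. Its levels at E16.5 were 15.9, 15.6 and 17.3 CPM in WT and 22.1, 22.5 and 20.01 CPM in cKO, again with no overlap. The fitted log2 difference was 0.40 with an SE of 0.100 (edgeR adjusted p = 0.0333), a 1.32-fold difference. At E14.5 the libraries were likewise apart, at 22.2, 22.01 and 24.5 CPM in WT and 32.04, 28.3 and 31.99 CPM in cKO, with a log2 fold change of 0.44 (adjusted p = 0.0790). At E14.5 the authors' deposited table gave Uqcr10 a log2 ratio of WT over knockout of -0.41 and called it (adjusted p = 0.0236).

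**Figure D2:**
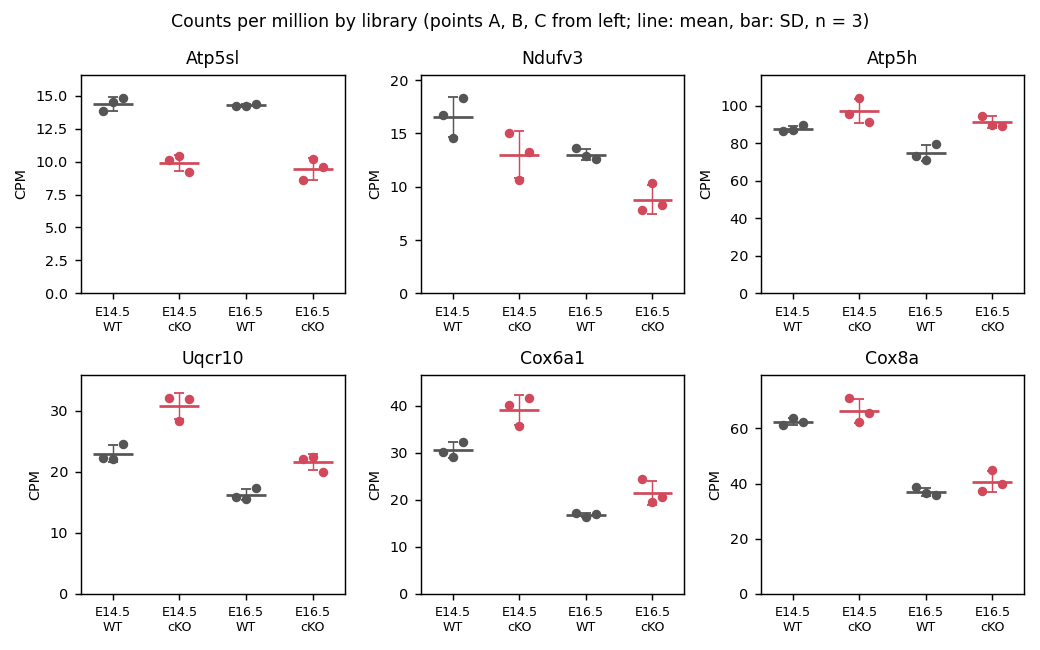
Levels of 6 genes in each library. The vertical axes are CPM and start at 0. Points are libraries A, B and C from left to right, lines are group means and bars the SD over 3 libraries. Atp5sl lies between 8.57 and 10.4 CPM in all 6 cKO libraries and between 13.8 and 14.8 CPM in all 6 WT libraries, while Cox8a differs between the ages, at 35.7 to 44.8 CPM at E16.5 against 61.2 to 71.0 CPM at E14.5.

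The calls at E16.5 depended on single libraries. Without WT B none of the 4 passed, without WT A 1 passed, and without cKO B 2 passed, while the log2 fold changes kept their signs in each case. Same-numbered libraries deviated together at E16.5, though weakly for pair C, and the main fit leaves the number out. The fit with that number as a block called 8 genes of the set, 6 higher and 2 lower, against 32.2% of all genes in that fit. It added Cox6a1 at 0.34, Uqcrh at 0.25, Atp5d at 0.19 and Ndufs1 at 0.14 (adjusted p = 0.0250, 0.0336, 0.0300 and 0.0477). In the 12-library fit that includes embryo sex, Ndufv3 missed the threshold (adjusted p = 0.0512).

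Complex by complex, the other genes at E16.5 gave the following values. In complex I, Ndufa2, an accessory subunit of the matrix arm, was at 7.28, 7.50 and 7.55 CPM in WT and 9.31, 10.6 and 8.39 CPM in cKO, with a log2 fold change of 0.34 (SE 0.139, edgeR adjusted p = 0.137). It did not overlap at E14.5 either, where it was at 0.49 (adjusted p = 0.144). Complex II had no gene near the threshold: Sdhb, the iron-sulphur subunit, was at 0.12 (adjusted p = 0.313), Sdhc, a membrane anchor, at -0.08 (adjusted p = 0.538), and the flavoprotein Sdha at 0.00 (adjusted p = 0.976). In complex III, Uqcrh, the hinge protein, was at 33.5, 34.3 and 36.4 CPM in WT and 42.8, 40.6 and 40.7 CPM in cKO, with a log2 fold change of 0.25 (adjusted p = 0.0683 without the block).

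The same 6 core subunits of complex I ranged from -0.17 for Ndufs7 to 0.15 for Ndufv1 at E16.5, and none of them passed. The core proteins of complex III, Uqcrc1 and Uqcrc2, were at 0.12 and 0.05, and Uqcrfs1 at -0.02 (adjusted p = 0.279, 0.557 and 0.878). The summed level of complex I was 989, 978 and 1011 CPM in WT and 1039, 1054 and 1016 CPM in cKO, with no overlap. That of complex III was 412, 412 and 425 CPM in WT and 443, 452 and 444 CPM in cKO, also with no overlap. Complex II overlapped, at 301 to 314 CPM in WT and 313 to 320 CPM in cKO. Complex IV overlapped too, at 625 to 649 CPM in WT and 647 to 709 CPM in cKO. The sum of complex V was 1702, 1637 and 1741 CPM in WT and 1717, 1727 and 1704 CPM in cKO, with full overlap.

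Of the genes counted under complex IV by symbol, all 12 tested at E16.5 had positive fitted values, with a median of 0.13. Ndufa4, counted under complex I although its protein is found with complex IV, was at -0.05 (edgeR adjusted p = 0.799). None of the 12 passed the test. Cox6a1 came closest, at 17.1, 16.3 and 17.0 CPM in WT and 24.4, 19.5 and 20.6 CPM in cKO, a log2 difference of 0.35 (SE 0.112, edgeR adjusted p = 0.0730). Cox4i1, a regulatory subunit, was at 0.12 (adjusted p = 0.231). In complex V the fitted values had a median of 0.02 and split 9 above and 8 below 0. Among them Atp5b, which had the highest level, was at -0.04 with a 95% interval from -0.19 to 0.11 on the log2 scale.

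Over all 78 genes the E16.5 median was 0.06 against 0.02 for all genes tested, and 54 (69.2%) were above 0 against 52.6%. The cKO libraries all lay above WT in 18 genes (23.1%), against 19.3% of all genes, and all below in 3, Atp5e, Atp5sl and Ndufv3 (3.85%), against 18.3%. The summed level of the 86 genes was 4049, 3954 and 4139 CPM in WT and 4224, 4258 and 4124 CPM in cKO, which overlap by 1 library. Pan-neuronal markers moved with genotype beside these values. At E16.5, 7 of 10 were lower in cKO, against 9.88% of all genes called lower. Their sum was 5345 to 5647 CPM in WT and 3862 to 4441 CPM in cKO. At E14.5, 1 of 10 was lower, against 2.01% of all genes called in either direction. Their sum was then 3739 to 5121 CPM in WT and 2190 to 3873 CPM in cKO. No pan-neuronal marker was at 0. Apical progenitor markers had 2 of 9 called higher at E16.5, Hes5 at 0.68 and Nes at 0.46, against 5.98% of all genes. Of these 9 markers, 7 had fitted values above 0. Their sums were 1322 to 1676 CPM in WT and 1450 to 1950 CPM in cKO, which overlap. The part of these cells in the results was not tested.

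**Figure D3:**
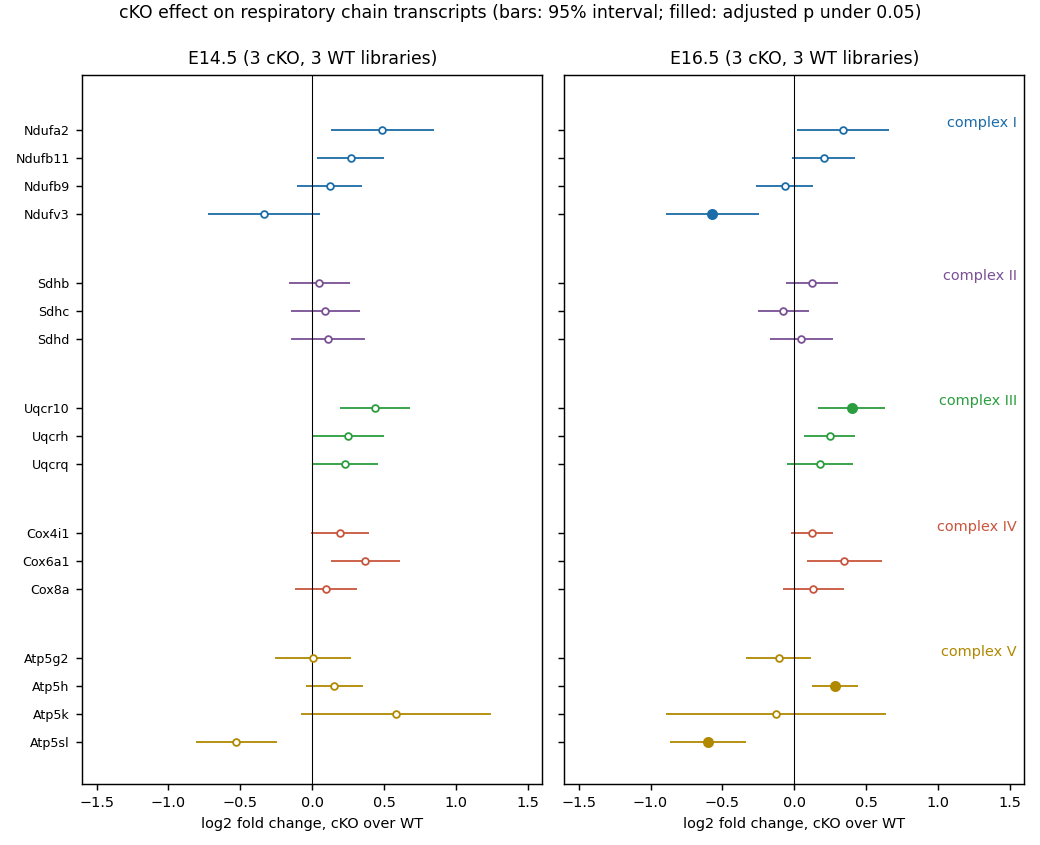
Log2 fold change of cKO over WT at E14.5 (left) and E16.5 (right) for genes of the set that the rule for named genes picked, ordered by complex. Circles are fitted values, bars 95% intervals, and filled circles passed an adjusted p of 0.05. Filled circles appear at E16.5 for Atp5sl, Ndufv3, Atp5h and Uqcr10, and most intervals stay within 1.5-fold.

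The 3 X-linked genes bear on the difference in embryo sex at E14.5. Ndufb11, a subunit of the membrane arm of complex I, was at 27.7, 28.4 and 31.7 CPM in the male WT and 36.0, 35.8 and 33.0 CPM in the female cKO libraries, with a log2 fold change of 0.27 (adjusted p = 0.196). At E16.5, where each genotype had 1 female, it was at 0.20 (adjusted p = 0.190). Ndufa1 was at 0.16 and -0.22 at the 2 ages (adjusted p = 0.638 and 0.396), and Cox7b at 0.15 and 0.12 (adjusted p = 0.420 and 0.264). None of the 3 passed at either age.

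The difference between the ages was tested itself. For the cKO effect at E16.5 against that at E14.5, 0 of 79 genes of the set and 0% of all 15338 genes passed. On simulated counts this test recovered 5% of 1.5-fold and 44% of 2-fold changes, so many differences of that size would be missed. The E14.5 effect cannot be told apart from embryo sex, and the difference between ages carries that limit too. At an unadjusted p under 0.05 the set again had 0, against 2.07% of all genes, and DESeq2 called 0 of 79. The median difference was -0.02 against 0.03 for all genes. For 62 of 79 genes the interval of the difference lay within 1.5-fold. Of the 78 genes tested at both ages, 49 had fitted values above 0 at both and 8 below 0 at both.

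In WT cortex, 8 of 79 genes passed the test between E14.5 and E16.5 (10.1%), against 2.15% of all genes. With length-adjusted offsets 3 passed, and 0 passed without E14.5 WT C, E16.5 WT A or E16.5 WT B. Of these, 7 were lower at E16.5 (8.86%), against 1.39% of all genes called lower, and 1 was higher (1.27%), against 0.763%. DESeq2 called 18 of the set and 13.1% of all genes. The fitted difference was above 0 in 22 of 79 genes (27.8%), against 48.7% of all genes, and the median was -0.11 against -0.01. By complex it was -0.13 for complex I, 0.01 for complex II, -0.17 for complex III, -0.10 for complex IV and -0.14 for complex V. The summed level of the 86 genes was 4230 to 4415 CPM at E14.5 and 3954 to 4139 CPM at E16.5 in WT.

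Complex IV held the largest of these differences. Cox6a1 went from 30.2, 29.0 and 32.3 CPM to 17.1, 16.3 and 17.0 CPM, a log2 fold change of -0.86 (SE 0.103, edgeR adjusted p = 0.00655). Cox8a, the ubiquitous form of a small subunit, went from 61.2, 63.8 and 62.4 CPM to 38.6, 36.6 and 35.7 CPM, a change of -0.76 (SE 0.0849, adjusted p = 0.00586). The ages did not overlap for either. In cKO, Cox6a1 was at 40.2, 35.6 and 41.55 CPM at E14.5 and 24.4, 19.5 and 20.6 CPM at E16.5, and no test with age was made there. Cox4i1, of the same complex, was at -0.15 (adjusted p = 0.187) and Cox5a at 0.21 (adjusted p = 0.108).

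In complex III, Uqcrq, a small membrane subunit, fell by 0.52 on the log2 scale (SE 0.0902, edgeR adjusted p = 0.0283), from 26.2, 25.4 and 28.7 CPM to 19.1, 19.99 and 17.0 CPM. Uqcr10 fell by 0.50 (SE 0.0937, adjusted p = 0.0318). Uqcr11, named after its values were seen, as it lies outside the rule for named genes, fell by 0.62 (SE 0.139, adjusted p = 0.0468). The core proteins Uqcrc1 and Uqcrc2 were at -0.08 and 0.19 (adjusted p = 0.570 and 0.162). In complex I, Ndufb9 went the other way, from 30.1, 29.8 and 29.9 CPM to 39.5, 39.1 and 40.3 CPM (0.41, SE 0.0892, adjusted p = 0.0442). Ndufa7, also named after its values were seen, fell by 0.42 (adjusted p = 0.0489).

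Of the 3 genes for the c subunit of the ATP synthase rotor, Atp5g2 passed the test with age and the other two did not. Their mature proteins are identical, and the genes differ in the import sequence. Atp5g2 fell in WT from 40.6, 42.6 and 41.5 CPM to 28.8, 27.4 and 28.7 CPM, a log2 fold change of -0.55 (SE 0.100, edgeR adjusted p = 0.0302). Atp5g3 was at 0.16 (adjusted p = 0.206) and Atp5g1 at -0.14 (adjusted p = 0.379). By RPKM, the share of Atp5g2 was 38.2% ± 1.18 (SD, n = 3) at E14.5 and 28.8% ± 1.23 (SD, n = 3) at E16.5 in WT. Atp5g3 held 37.1% ± 0.961 and 46.2% ± 0.571. Atp5g1 held 24.7% ± 0.670 and 24.9% ± 1.61. The shares are a description and were not tested. In cKO the shares of Atp5g2 were 36.6% and 27.1%, and those of Atp5g3 37.0% and 47.7%.

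**Figure D4:**
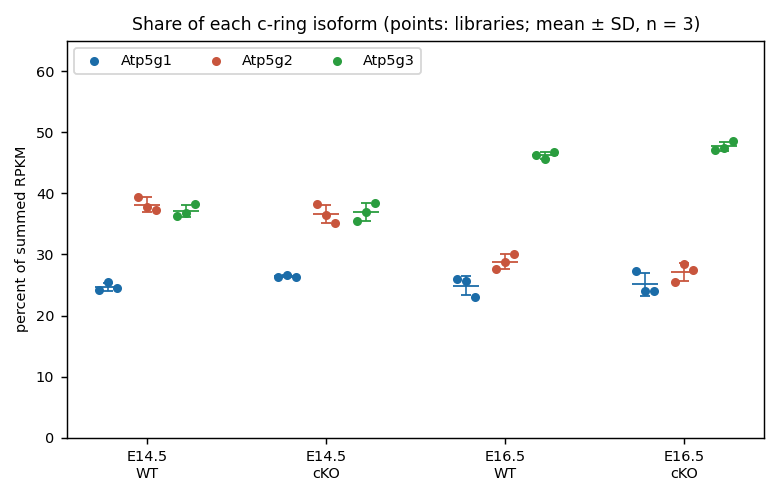
Share of Atp5g1, Atp5g2 and Atp5g3 in their summed RPKM, in percent, by group. Points are libraries and bars the mean and SD over 3 libraries. Atp5g2 and Atp5g3 lie together at E14.5 and apart at E16.5 in both genotypes, while Atp5g1 stays between 23.1% and 27.3%.

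Exon length moves with the age comparison and touches most of the set. The 86 genes have a median exon length of 669 bases against 1976 for all genes of the table, and 61 of them (70.9%) are under 1000 bases against 26%. Among genes outside the set, the WT age difference had a median of -0.17 in the 427 genes under 500 bases, -0.12 from there to 1000 bases, -0.05 to 2000, 0.00 to 4000 and 0.04 above that. In the set it was -0.23, -0.19 and -0.03 in the 3 shortest classes, with 15, 39 and 20 genes. Spearman's rho of the difference with length across genes, which share libraries, was 0.13 outside the set and 0.28 within it.

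With offsets that adjust each library for exon length, the set's median with age was 0.01 in place of -0.11, and 3 genes passed: Ndufb9 at 0.59, Cox6a1 at -0.64 and Cox8a at -0.54 (adjusted p = 0.0329, 0.0353 and 0.0378). Atp5g2 was then at -0.37 (adjusted p = 0.0704), Uqcrq at -0.28 (adjusted p = 0.0839) and Uqcr10 at -0.24 (adjusted p = 0.131). The same offsets kept all 4 calls at E16.5 between the genotypes, where the median of the set was 0.03. Leaving out single libraries of the age comparison gave between 0 and 13 calls: 0 without E14.5 WT C, E16.5 WT A or E16.5 WT B, 2 without E14.5 WT A, E16.5 WT C, E14.5 cKO C or E16.5 cKO B, 12 without E14.5 cKO B and 13 without E14.5 cKO A. The cKO libraries enter through the shared estimate of spread, and also through the filter on low counts and the scaling. Over all genes these fits called from 0.0064% to 14.2%. With embryo sex in the model, 2 genes passed, Cox8a and Cox6a1, and the 3 male E14.5 libraries stand against 2 male and 1 female at E16.5. The age and genotype comparisons share the WT libraries. Beside the age difference, pan-neuronal markers had a median of 0.49 with 0 of 10 called, against 2.15% of all genes. The apical progenitor list had 2 of 9 lower at E16.5, against 1.39% of all genes called lower. Their part in the age difference was not tested.

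**Figure D5:**
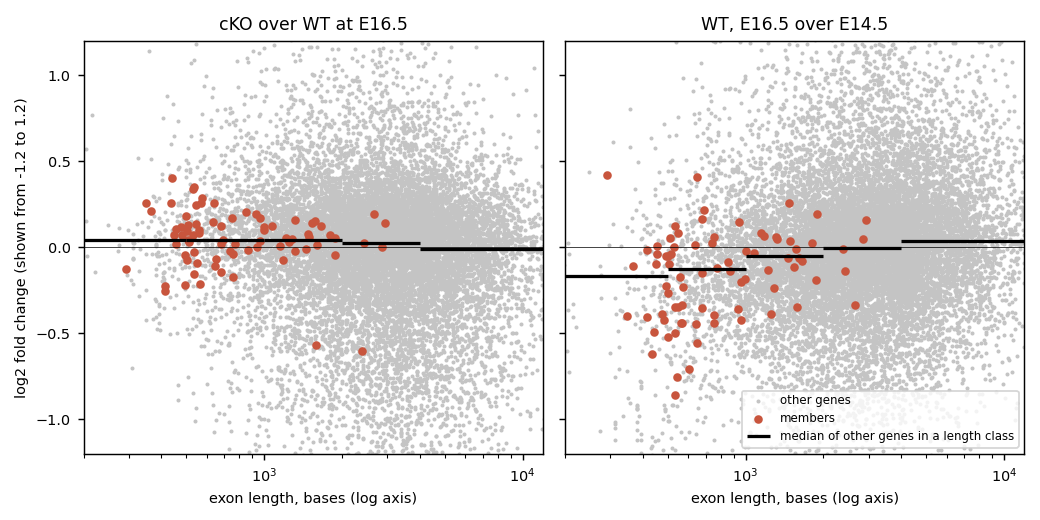
Log2 fold change against exon length in bases (log axis) for cKO over WT at E16.5 (left) and for WT at E16.5 over E14.5 (right). Red points are genes of the set, grey points other genes, and black lines the median of other genes in 5 length classes. The lines are nearly level on the left and climb from -0.17 to 0.04 on the right.

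Other genes of the chain and of its supply were read from lists of known members. The 5 chain genes whose symbols fall outside the pattern, Ndufab1, Cyc1, Cycs, Usmg5 and 2010107E04Rik, had 0 calls in either genotype comparison. With age in WT, Ndufab1, the mitochondrial acyl carrier protein, fell by 0.57 (adjusted p = 0.0489). Among the 13 protein-coding genes of the mitochondrial genome, 12 were tested at E14.5 and 11 at E16.5, with 0 calls between genotypes. COX3 was lower at E16.5 than at E14.5 in WT (-2.22, adjusted p = 0.0339), and 1 of the 13 genes had a fitted value above 0 in that comparison, with a median of -1.0. These 13 genes took between 0.475% and 0.718% of all counts in the 6 E14.5 libraries. In the 6 E16.5 libraries they took between 0.199% and 0.438%. Their part in the age difference of the nuclear genes was not tested.

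Of 52 assembly factors tested, 0 passed at E14.5, against 2.01% of all genes, and 3 at E16.5, against 15.9%. Ndufaf7, a methyltransferase that acts on complex I, was higher at E16.5 (0.38, adjusted p = 0.0222), as was Sdhaf1, which delivers iron-sulphur clusters to complex II (0.59, adjusted p = 0.0330). Ndufaf3, which acts early in complex I assembly, was lower (-0.76, adjusted p = 0.0224). Among 16 genes of the citric acid cycle and pyruvate oxidation, 2 were higher at E16.5 and none lower, against 5.98% and 9.88% of all genes. Suclg2, of the GTP-forming succinyl-CoA ligase, changed by 0.96 (adjusted p = 0.0055), from a mean of 13.3 CPM in WT to 26.05 CPM in cKO, and Pdhb, of pyruvate dehydrogenase, by 0.26 (adjusted p = 0.0494). In protein import, with the same shares over all genes, 2 of 19 were higher and none lower, Timm22 at 0.39 and Timm50 at 0.32 (adjusted p = 0.0234 and 0.0485).

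Regulators of mitochondrial gene expression had 4 of 15 higher at E16.5 and none lower, against 5.98% and 9.88% of all genes. Gabpa, the ETS factor of the motif searched above, was at 70.8, 73.2 and 79.8 CPM in WT and 96.3, 106 and 107 CPM in cKO at E16.5 (log2 fold change 0.46, edgeR adjusted p = 0.0079). At E14.5 it was at 83.4, 79.3 and 79.2 CPM in WT and 101, 111 and 112 CPM in cKO (0.43, adjusted p = 0.0484), the single call at that age among the lists of the chain's supply. Polg, the mitochondrial DNA polymerase, changed by 0.32 at E16.5, Polrmt, the mitochondrial RNA polymerase, by 0.35 and Tfb1m, an rRNA methyltransferase, by 0.59 (adjusted p = 0.0126, 0.0235 and 0.0209). Nrf1 was at 0.14 (adjusted p = 0.184), Tfam at 0.08 (adjusted p = 0.680) and Ppargc1a at -0.29 (adjusted p = 0.135).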

How the data were processed

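Reads were mapped by the authors to mm10 with STAR 2.5.2b (source: per the submitters' processing notes). The deposited raw counts of fragments per gene come from featureCounts 1.5.2 on exons, strand setting 2, minimum overlap 25 bases, per the file headers. Values of near-identical gene copies are less certain, since reads can be split or lost between them. The authors' deposited table also gives log2 ratios of WT over knockout and adjusted p-values, per the file headers; DESeq2 1.14.1 is named in the submitters' processing notes. Another 16 columns of library values were not used.

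The count model was edgeR 4.0.16 (R 4.3.3, limma 3.58.1), with TMM scaling, genes kept by filterByExpr, the robust quasi-likelihood F test and p-values adjusted by Benjamini-Hochberg over every gene tested. The threshold was 0.05. Genotypes were compared within an age on 6 libraries, and the difference between ages and the WT age comparison on 12 libraries in 4 groups. SE is derived from the F statistic. CPM use TMM effective sizes. DESeq2 1.42.0, other scalings, no filter, length-adjusted offsets (loess, span 0.3), embryo sex, a replicate block and left-out libraries were alternatives.

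Pairing was checked by correlating the deviations of same-numbered libraries from their group means: 0.28, 0.21 and 0.11 at E16.5, and 0.27, 0.30 and -0.00218 at E14.5. Libraries with different numbers gave -0.267 to 0.107 at E16.5 and -0.297 to 0.0905 at E14.5. The titles' numbers were taken to pair the libraries at E16.5, where each same-numbered value was over 0.1. For the C pair that value barely exceeded the 0.107 of WT C with cKO B. The main fits leave the pairing out, and only the replicate block uses it.

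The members, lists and motifs were chosen with earlier results of these data known. Named genes are called members whose libraries do not overlap, up to 10 per direction; for each complex with fewer than 3 called, the 2 smallest p-values; up to 5 per direction with age; isoform sets; X-linked members; and up to 3 called genes per other list. Other members appear as values to show their role. The test was checked on simulated counts.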

Additional observations from a re-analysis of the deposited data

How the results depend on the processing

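The 4 comparisons were repeated under each alternative. At E14.5, DESeq2 called 3 members, the replicate block 1 (Uqcr10) and the fit of 12 libraries without sex 4, and the count was 0 under the others, left-out libraries included. The E14.5 median was 0.00849 with length-adjusted offsets and 0.121 with sex as a term. At E16.5 the block called 8 members, and the median was 0.0963 with library totals as scaling and 0.0278 with length-adjusted offsets. Left-out libraries gave 0 to 3 calls at E16.5. For the difference between ages the count was 0 throughout, and the median was -0.0674 with no filter and -0.0726 to 0.0141 with left-out libraries. For WT with age, DESeq2 called 18, no filter 5, length-adjusted offsets 3 and left-out libraries 0 to 13. The age median was 0.00998 with length-adjusted offsets. Sex terms in the age comparison were added after seeing the data: sex alone gave 2 calls, and with length-adjusted offsets 0 calls and a median of 0.0073. Over all genes at E14.5, DESeq2 called 8.64%, the block 8.65%, sex as a term 0.835% and left-out libraries 0.0334% to 2.35%, against 2.01%. Over all genes at E16.5, sex as a term called 10.2% and left-out libraries 6.5% to 19%, against 15.9%. With age, length-adjusted offsets called 1.26%, no filter 1.08% and sex as a term 0.0652% of all genes, against 2.15%.

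Of 404 repeats over 26 values of named genes, 329 kept direction and side of the threshold, 62 lost and 12 gained the call. The E14.5 value of Sdhd changed sign, to -0.0192 without WT B and cKO A. The cause was not tested. Depth limited the lowest members: 7 were not tested at either age.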
